A study of Mus musculus with 2 samples.

Results

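The killer lectin-like receptor genes (Klr genes) of the mouse were followed through the immune and non-immune cells of 2 tumours. The members were all genes whose symbol starts with Klr, followed by a letter from a to k and a number. This took 26 of the 32285 genes in the count tables. Of these 26, 11 are Klra genes, which encode the Ly49 receptors. The tumours came from the colon carcinoma line MC38 and had been grown in C57BL/6 mice, the strain the line derives from. The genotype of the injected cells was MC38-RSPO3-OE in one tumour, with RSPO3 overexpressed, and MC38-Ctrl in the other. RSPO3 is a secreted protein that strengthens Wnt signalling. Each tumour was dissociated without a stated sort and gave 1 single-cell 3′ library. There are therefore no replicates, no test was possible and no p-value is given. The age and sex of the mice, the number of tumours in each suspension and whether the lines are single clones are not given in the labels. All differences below are between 2 libraries, and their intervals cover counting error only.

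Killer lectin-like receptors are C-type lectin-like proteins of the cell surface, best known from natural killer (NK) cells and cytotoxic T cells. Ly49 receptors read classical MHC class I molecules, CD94 (Klrd1) pairs with NKG2 chains (Klrc1, Klrc2) to read the non-classical molecule Qa-1, NKG2D (Klrk1) reads stress-induced ligands, and NKR-P1 receptors (Klrb1 genes) read Clr lectins. Inhibitory members carry a signalling motif that recruits phosphatases, and activating members pair with the adaptors DAP12 (Tyrobp) or DAP10 (Hcst).

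All 26 members lie on chromosome 6 of the mm10 build in the GENCODE annotation. Between 128609227 and 131247362 there are 24 of them in 2638 kb, with the 11 Ly49 genes at its far end, where Klra2 stands apart from the other 10, while Klrg1 and Klrg2 lie outside it. RefSeq (GRCm38.p6) gave a promoter for 23 of the 26, the exceptions being Klrd1, Klri2 and Klrg1. The 6 windows below hold the 250 bases before the start site, all on the minus strand and printed 5′ to 3′ towards the gene. They were chosen because these genes had the most different cell patterns in these tumours. Klra4 was found in Ptprc-negative cells and in NK cells, Klra8 in NK cells, Klra2 and Klra17 in macrophages, Klrc1 in lymphocytes, and Klrk1 in lymphocytes and macrophages. Capitals mark a PU.1-type motif (GAGGAA, on either strand) in the Ly49 genes and a RUNX-type motif (TGTGGT, on either strand) in Klrc1 and Klrk1.
Klra4, chr6:130067272-130067521: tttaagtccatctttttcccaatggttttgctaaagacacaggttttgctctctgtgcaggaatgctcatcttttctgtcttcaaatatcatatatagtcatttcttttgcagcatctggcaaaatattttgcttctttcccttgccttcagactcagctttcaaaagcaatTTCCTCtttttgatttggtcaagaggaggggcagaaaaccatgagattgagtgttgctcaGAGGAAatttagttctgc
Klra8, chr6:130129899-130130148: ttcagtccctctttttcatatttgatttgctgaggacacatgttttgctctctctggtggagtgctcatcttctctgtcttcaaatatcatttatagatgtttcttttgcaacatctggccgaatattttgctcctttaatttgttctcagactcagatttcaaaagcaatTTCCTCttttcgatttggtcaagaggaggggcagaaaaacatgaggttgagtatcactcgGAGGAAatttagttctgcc
Klra17, chr6:129876673-129876922: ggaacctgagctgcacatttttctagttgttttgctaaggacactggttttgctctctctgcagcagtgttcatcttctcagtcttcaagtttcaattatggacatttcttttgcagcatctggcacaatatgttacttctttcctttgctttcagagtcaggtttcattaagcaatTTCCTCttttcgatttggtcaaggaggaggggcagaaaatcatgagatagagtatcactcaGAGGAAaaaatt
Klra2, chr6:131247363-131247612: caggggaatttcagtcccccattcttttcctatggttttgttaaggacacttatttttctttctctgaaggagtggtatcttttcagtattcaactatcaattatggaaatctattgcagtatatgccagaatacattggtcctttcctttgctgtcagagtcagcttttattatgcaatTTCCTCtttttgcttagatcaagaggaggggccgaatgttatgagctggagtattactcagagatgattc
Klrc1, chr6:129678974-129679223: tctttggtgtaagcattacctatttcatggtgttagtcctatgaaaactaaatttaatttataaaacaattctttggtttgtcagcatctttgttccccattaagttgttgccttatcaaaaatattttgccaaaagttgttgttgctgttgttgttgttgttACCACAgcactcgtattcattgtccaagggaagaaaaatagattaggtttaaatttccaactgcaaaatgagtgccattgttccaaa
Klrk1, chr6:129623865-129624114: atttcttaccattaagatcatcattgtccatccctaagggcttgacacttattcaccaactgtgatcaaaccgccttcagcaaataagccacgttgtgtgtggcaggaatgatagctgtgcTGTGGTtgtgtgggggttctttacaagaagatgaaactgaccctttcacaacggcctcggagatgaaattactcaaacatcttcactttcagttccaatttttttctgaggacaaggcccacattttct

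Across these windows Klra4 was 84.5% identical to Klra8 in a pairwise alignment, 79.4% to Klra17 and 70.3% to Klra2. Similar upstream sequence thus stood before genes found in different cells. The PU.1-type motif was present in 13 of the 23 member promoters, 8 of them Ly49 genes, against 23.1% of 27025 promoters of the same length. In Klra4 its last base lay 73 and 13 bases before the start site. The RUNX-type motif was present in 8 of 23 members, against 14.2% of all promoters, and these 8 included every Klrc gene, Klre1 and Klrk1 but only 1 Ly49 gene, Klra1. A T-box motif (GGTGTG) was present in 4 of 23 and in 16.2% of all promoters. An AP-1 motif (TGANTCA) was in none of the 23 windows and in 6.87% of all promoters. The RUNX-type and T-box motifs can share bases, but no member window held both. A match is a description of the letters and not a site of binding.

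Depth and cell classes bear on every value. The libraries held 7314 barcodes for RSPO3-OE and 7301 for Ctrl, of which 6993 and 6895 cells were kept, with median depths of 18915 and 16627 unique molecular identifiers (UMIs). Both libraries held 7 of the kept barcodes. Rspo3 itself was detected in 975 of 4687 Ptprc-negative cells of RSPO3-OE and in 0 of 5190 of Ctrl. The 3 main classes were gated from marker UMIs. NK cells had at least 1 UMI of Ncr1 or Eomes, at least 1 of Ptprc, 0 of Cd3e and fewer than 5 of Lyz2 (48 and 30 cells for RSPO3-OE and Ctrl, in this order throughout). CD8 T cells had at least 2 UMIs of Cd8a and Cd8b1 and at least 1 of Cd3e and Cd3g (344 and 180 cells). Macrophages had at least 20 UMIs of C1qa, C1qb and C1qc (1214 and 1176 cells). A further class, the Ptprc-negative Y-negative cells (4687 and 5190), had no UMI of Ptprc or of the Y-linked genes Uty, Kdm5d, Eif2s3y and Ddx3y, and fewer than 5 of Lyz2 and of the C1q genes. Hmga2, a gene of fetal and tumour cells, was in 4127 and 4253 of these cells. Levels are in CPM, the UMIs of a gene in every 1000000 UMIs of the class. Because 3′ tags are counted, they are not divided by gene length.

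The NK gate was mixed. Hmga2 or Col1a1, transcripts of the Ptprc-negative class, were present in 11 of its 48 cells and 8 of its 30. These few cells were deep, with medians of 34175 and 52349 UMIs against 8058 and 10432 in the others. They held 57.6% and 61.9% of the UMIs of the gate but 7.65% and 5.79% of its Klr UMIs. Y-linked transcripts stood at 170 and 108 CPM in the other NK cells and at 4.93 and 0 in these. Among the 9 NK markers all were detected in the gate of both libraries, and Ncr1 was present in 33 of 48 and 22 of 30 cells. T cell markers summed to 460 and 308 CPM there, with Cd3e, which the gate excludes, and Cd5 at 0, and markers of type 1 innate lymphoid cells to 82.3 and 94.9. In the CD8 gate 14 of 344 and 19 of 180 cells held Hmga2 or Col1a1, with 8.01% and 31.0% of its UMIs. In the macrophage gate the cells were 111 and 73, with 13.1% and 8.14%. Leaving these cells out is an alternative chosen after seeing the data, and results are given with and without them. It leaves 37 and 22 NK cells, 330 and 161 CD8 T cells, and 1103 and 1103 macrophages.

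The classes carried different sets of receptors. NK cells held nearly the whole family, CD8 T cells the CD94/NKG2 group with Klrk1, Klre1 and Klri2, macrophages Klra2, Klrb1b, Klrk1 and Klra17, and Ptprc-negative cells Klra4 alone at more than about 2 CPM. Summed over the members, NK cells without Hmga2 and Col1a1 stood at 4274 and 5068 CPM, CD8 T cells at 2238 and 2180 and macrophages at 284 and 254. Klrc3, an activating NKG2 gene, had no UMI in any kept cell. In CD8 T cells a count of 0 still allows 0.997 and 1.61 CPM. Klrb1, Klri1 and Klra10 had between 0 and 2 UMIs in each library of the NK and CD8 gates, and Klra10 was found in 1 NK cell.

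**Figure D1:**
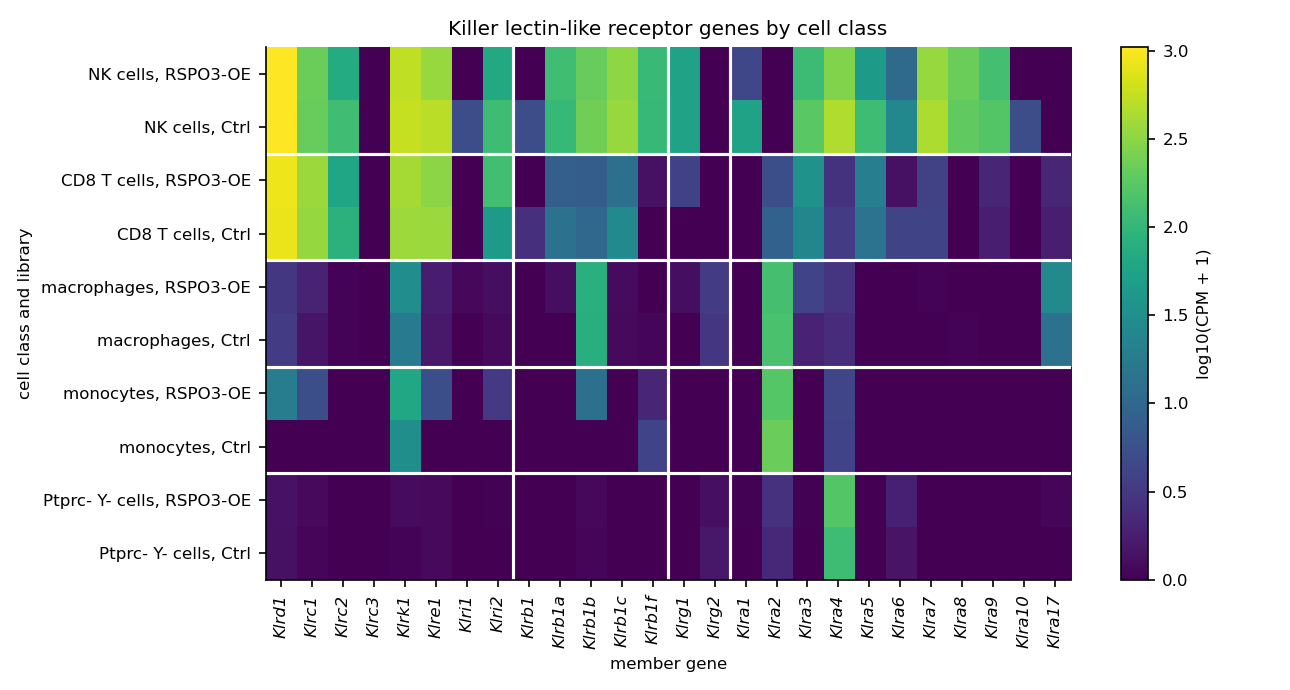
Level of each of the 26 members (columns) in 5 cell classes of both libraries (rows), as log10 of CPM plus 1; NK cells, CD8 T cells and macrophages are shown without cells holding Hmga2 or Col1a1. Klrd1 is brightest in NK and CD8 T cells (1046 and 872 CPM in RSPO3-OE), Klra2 in macrophages and monocytes, and Klra4 in NK cells and Ptprc-negative Y-negative cells.

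Most NK cells carried the CD94, NKG2D and Klre1 genes at once, 27 of 37 in RSPO3-OE and 21 of 22 in Ctrl. Klrd1 (CD94) was detected in 36 of 37 and 22 of 22 NK cells without Hmga2 and Col1a1, at 1046 and 1043 CPM. Klrk1 (NKG2D) was detected in 35 of 37 and 21 of 22, at 541 and 573. These were the 2 highest members in both libraries, and their levels were close between the libraries, with log2 ratios of RSPO3-OE over Ctrl of 0.00 (95% interval -0.24 to 0.25) and -0.08 (-0.42 to 0.26). Klre1, whose product pairs with the Klri receptors, was detected in 29 of 37 and 22 of 22 cells. Its level was 354 and 515 CPM, a log2 ratio of -0.54 (-0.93 to -0.15). All cells of the gate together gave a log2 ratio of -0.35 for Klre1, with an interval (-0.74 to 0.03) that includes 0.

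The NKG2 chains were in part of the cells. Klrc1, the inhibitory NKG2A, was in 21 of 37 and 13 of 22 cells at 217 and 208 CPM. Klrc2, the activating NKG2C, was in 13 of 37 and 14 of 22 at 70.2 and 125, with a log2 ratio of -0.83 (-1.71 to 0.02). Each cell with Klrc1 or Klrc2 also held Klrd1, the partner of both chains, in both libraries. Klri2, an activating partner of Klre1, was in 13 of 37 and 11 of 22 cells at 66.8 and 120, with a log2 ratio of -0.85 (-1.75 to 0.02). Every NK cell with Klri2 held Klre1. In the 3′ ends of the annotated transcripts, 56.5% of the 50-base words of Klrc1 are unique to it and 410 are shared with Klrc2, so the split between these 2 genes is less certain than their sum.

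Among the NKR-P1 genes, Klrb1c (NK1.1, the marker by which NK cells of C57BL/6 mice are stained) was in 30 of 37 and 20 of 22 NK cells. Its level was 321 and 357 CPM. Klrb1b, the inhibitory NKR-P1B, was in 25 of 37 and 20 of 22, at 207 and 228. These 2 genes, with opposite signalling, were both common. Klrb1a stood at 124 and 104 CPM and was in 17 of 37 and 10 of 22 cells. Klrb1f, an activating receptor, stood at 107 and 104 and was in 20 of 37 and 16 of 22. All 4 intervals of the log2 ratio include 0. Klrg1, an inhibitory receptor for cadherins that marks late NK and T cells, was in 7 of 37 and 5 of 22 cells at 53.5 and 54.0 CPM.

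The Ly49 genes were each found in part of the NK cells, and in differing combinations. Klra7 (Ly49G), an inhibitory receptor, was in 14 of 37 and 12 of 22 at 361 and 444 CPM. Klra4 (Ly49D), which activates through DAP12, was in 14 of 37 and 10 of 22 at 281 and 453. Its log2 ratio was -0.69 (-1.12 to -0.27), against -0.26 (-0.59 to 0.07) over all cells of the gate. Klra8 (Ly49H), the other DAP12-linked Ly49, was in 13 of 37 and 8 of 22 at 221 and 191. Klra9 (Ly49I) stood at 130 and 162 in 11 of 37 and 7 of 22, and Klra3 (Ly49C) at 117 and 174 in 13 of 37 and 9 of 22. The highest Ly49 genes thus included both inhibitory and activating receptors.

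Rarer Ly49 genes rested on few cells. Klra5 had 13 and 29 UMIs, from 3 and 4 cells. Klra1 (Ly49A) had 1 and 13 UMIs, from 1 and 3 cells. Klra6 had 5 and 6 UMIs over all cells of the gate, from 2 cells in each library. Receptor combinations differed from cell to cell: the median NK cell held 2 Ly49 genes in both libraries and at most 5, and 6 of 37 and 2 of 22 held none. Klra4 and Klra8 were together in 6 of the 37 and 5 of the 22 cells, and Klra7 and Klra3 in 2 and 4. Counting all members, each NK cell held at least 3, with a median of 9 and 11 and a maximum of 12 and 14. The depth of the cells, 8058 and 10432 UMIs at the median, moves with these counts. Its part in the difference was not tested. Reads of Klra9, Klra10 and Klra3 are also less certain, since 50.6%, 59.4% and 68.5% of their 3′ words are unique.

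**Figure D2:**
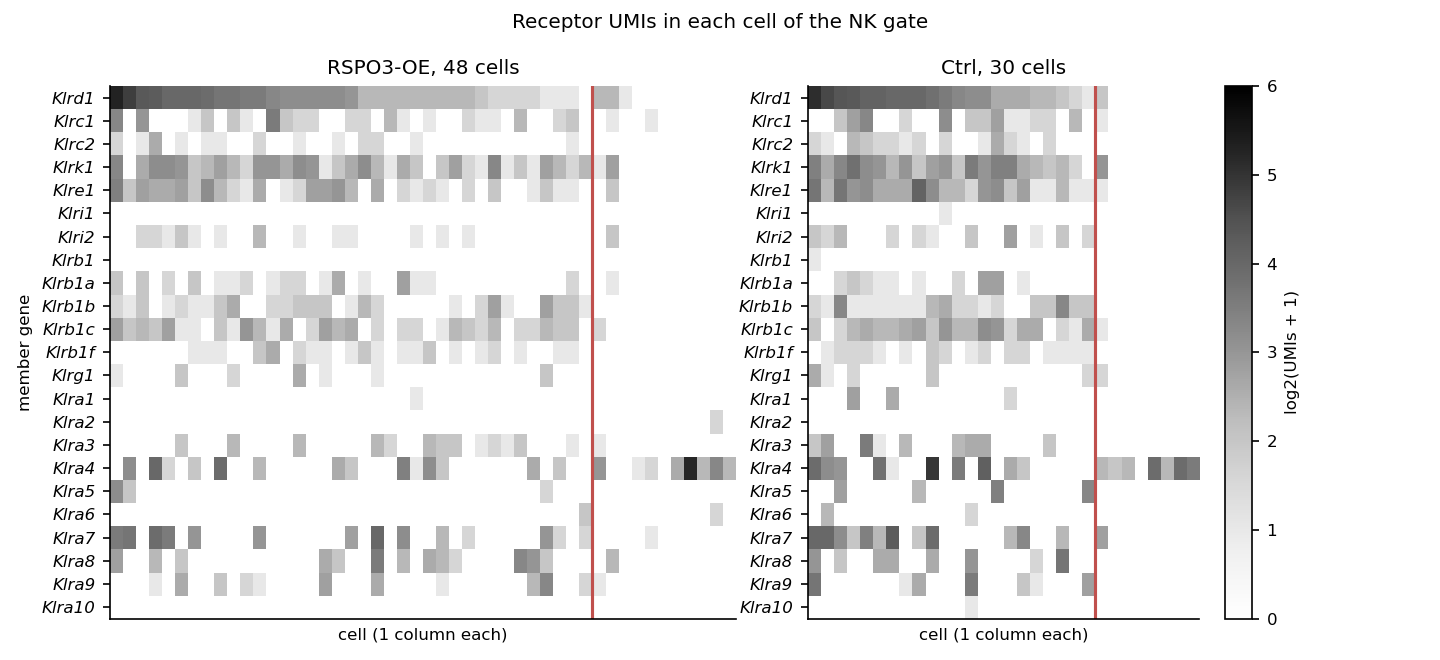
UMIs of each member (rows) in each cell of the NK gate (columns), as log2 of UMIs plus 1, ordered by Klrd1; the red line divides cells without Hmga2 and Col1a1 (left, 37 and 22) from those with either (right, 11 and 8). Klrd1 and Klrk1 fill nearly all columns on the left, each Ly49 gene fills a different part of them, and on the right Klra4 is the most frequent member, in 8 of 11 and 7 of 8 cells.

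Between the libraries, 19 members had at least 10 UMIs in the NK gate. None was at least 2-fold higher in RSPO3-OE, where 6.33% of 8747 genes were, and 2 were at least 2-fold lower, where 7.65% were. Those 2 were Klra5 (log2 -1.31, interval -2.38 to -0.32) and Klra1 (log2 -3.86, -9.27 to -1.12), both from few cells. The median log2 ratio was -0.12 over the 19 members and -0.07 over all 8747 genes. Summed Klr UMIs stood at 1965 and 2047 CPM, a log2 ratio of -0.06 (-0.17 to 0.05). Without the Hmga2 or Col1a1 cells it was -0.25 (-0.36 to -0.13). It was 0.23 under a stricter NK gate, which required Ncr1 and left out cells with CD3 or CD8 transcripts. That gate did not screen for Hmga2 or Col1a1. The sign thus depends on which cells are counted. The Ly49 sum was lower in RSPO3-OE in NK cells without those transcripts, with a log2 ratio of -0.48 (-0.69 to -0.27). It was -0.24 over the gate and 0.16 (-0.29 to 0.62) after each cell was thinned to 2000 UMIs.

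CD8 T cells carried the CD94/NKG2 group nearly as fully as NK cells. Without Hmga2 and Col1a1, Klrd1 was in 320 of 330 and 148 of 161 CD8 T cells at 872 and 857 CPM. Klrc1 was in 290 and 129 of these cells at 372 and 347, above its level in NK cells. Klrk1 was in 285 and 132 at 406 and 373, and Klre1 in 273 and 134 at 310 and 369. Klrd1 and Klrc1, which form the inhibitory CD94/NKG2A receptor, were together in 286 of 330 and 125 of 161 cells. As a measure of free RNA, Klrd1 was detected in 0.832% and 0.462% of the deeper Ptprc-negative cells (medians of 23768 and 19186 UMIs, against 7051 and 7036 in these CD8 T cells).

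Over all cells of the CD8 gate these genes were higher in RSPO3-OE, and without the Hmga2 or Col1a1 cells most were not. Klrd1 had a log2 ratio of 0.38 (0.28 to 0.48) in the gate and of 0.03 (-0.08 to 0.13) without them. Klrk1 had 0.48 (0.33 to 0.63) and 0.12 (-0.03 to 0.28). Klrc1 had 0.48 (0.33 to 0.64) and 0.10 (-0.06 to 0.26). Summed over the members, the log2 ratio was 0.37 (0.31 to 0.43) from 2141 and 1658 CPM. It was 0.04 (-0.03 to 0.10) without these cells, which were a larger share of the gate in Ctrl. Klre1 had 0.09 (-0.07 to 0.25) in the gate and -0.25 (-0.42 to -0.09) without them.

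Klri2, an activating receptor chain, was the member furthest above Ctrl in the CD8 T cells of RSPO3-OE. It had 354 UMIs in 147 of 330 CD8 T cells of RSPO3-OE and 56 in 30 of 161 of Ctrl. These are 44.5% (39.1 to 50.1) and 18.6% (12.9 to 25.5) of cells. In the Ptprc-negative cells it was in 0.064% and 0.0385%. Its level was 128 and 43.6 CPM, a log2 ratio of 1.55 (1.14 to 1.99). Over the whole gate the level was 121 and 32.7, 3.70-fold higher in RSPO3-OE with a log2 ratio of 1.89 (1.49 to 2.31). With each cell thinned to 2000 UMIs, 21.1% and 11.2% of the CD8 T cells without Hmga2 and Col1a1 held Klri2. The order was the same after thinning and the gap smaller.

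The difference in Klri2 was present in CD8 T cells of several states. In dividing CD8 T cells (at least 2 UMIs of Mki67 and Top2a), Klri2 stood at 108 and 36.3 CPM, and in the others at 142 and 48.5. Cells with late granzymes (at least 5 UMIs of Gzmd, Gzme, Gzmf and Gzmg) had 134 and 39.1. Cells with Havcr2, which encodes the checkpoint receptor TIM-3, had 130.1 and 50.6. RSPO3-OE was between 2.57 and 3.43 times as high over these 3 subsets and their complements, so the difference was not limited to 1 of these states. The 3 cuts divide the same cells. In Ctrl the dividing, late granzyme and Havcr2 values rest on 19, 11 and 24 UMIs. The partner of Klri2, Klre1, was not higher in RSPO3-OE, and 132 of the 147 Klri2 cells of RSPO3-OE and 27 of the 30 of Ctrl held Klre1. NK cells showed the opposite order for Klri2, with an interval that includes 0.

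Klrc2 and Klrb1c were lower in the CD8 T cells of RSPO3-OE without Hmga2 and Col1a1. Klrc2 (NKG2C) was in 111 of 330 and 72 of 161 cells at 58.2 and 87.1 CPM, with a log2 ratio of -0.58 (-0.94 to -0.22). It was -0.25 (-0.60 to 0.10) in the gate. Klrb1c (NK1.1) was in 23 and 22 cells at 11.9 and 26.4, with a log2 ratio of -1.15 (-1.89 to -0.42), and -0.80 (-1.49 to -0.12) in the gate. Klrb1a, from 20 and 16 UMIs, stood at 7.22 and 12.4, and Klrb1b, from 19 and 12 UMIs, at 6.86 and 9.33. Their log2 ratios had intervals that include 0 (-1.81 to 0.26 and -1.56 to 0.73). Together the NKR-P1 genes were in 47 of 330 and 37 of 161 CD8 T cells, with a log2 ratio of -0.92 (-1.42 to -0.41).

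Ly49 genes were in 19.4% and 16.8% of the CD8 T cells, mostly 1 gene per cell. Klra3 (Ly49C) led them, with 36 of 330 and 11 of 161 cells at 33.6 and 23.3 CPM. Klra5 followed at 18.4 and 13.2, from 12 and 5 cells, 1 of which held 10 of the 20 Klra5 UMIs of the Ctrl gate. Klra7 had 8 and 4 UMIs and Klra8 had none. Klra2, a macrophage gene here, had 12 and 10 UMIs. Klra4 had 24 and 55 UMIs over the gate, from 7 and 14 cells, and 5 and 3 UMIs once Hmga2 or Col1a1 cells were left out. Its level in the CD8 gate was 4.95% and 24.7% of that in Ptprc-negative cells, beside 4.28% and 22.8% for Hmga2.

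Of the 14 members with at least 10 UMIs in the CD8 gate, 1 was at least 2-fold higher in RSPO3-OE (Klri2), beside 3.8% of 10777 genes. Another 1 was at least 2-fold lower (Klra4), beside 10.1% of all genes. Without the Hmga2 or Col1a1 cells, Klri2 was again the 1 that was higher, beside 5.25% of 9997 genes, and the 1 lower was Klrb1c in place of Klra4, beside 4.26%. Medians of the log2 ratios were 0.20 over the 14 members and -0.06 over all genes, and -0.11 over 13 members and 0.01 over all genes without those cells.

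**Figure D3:**
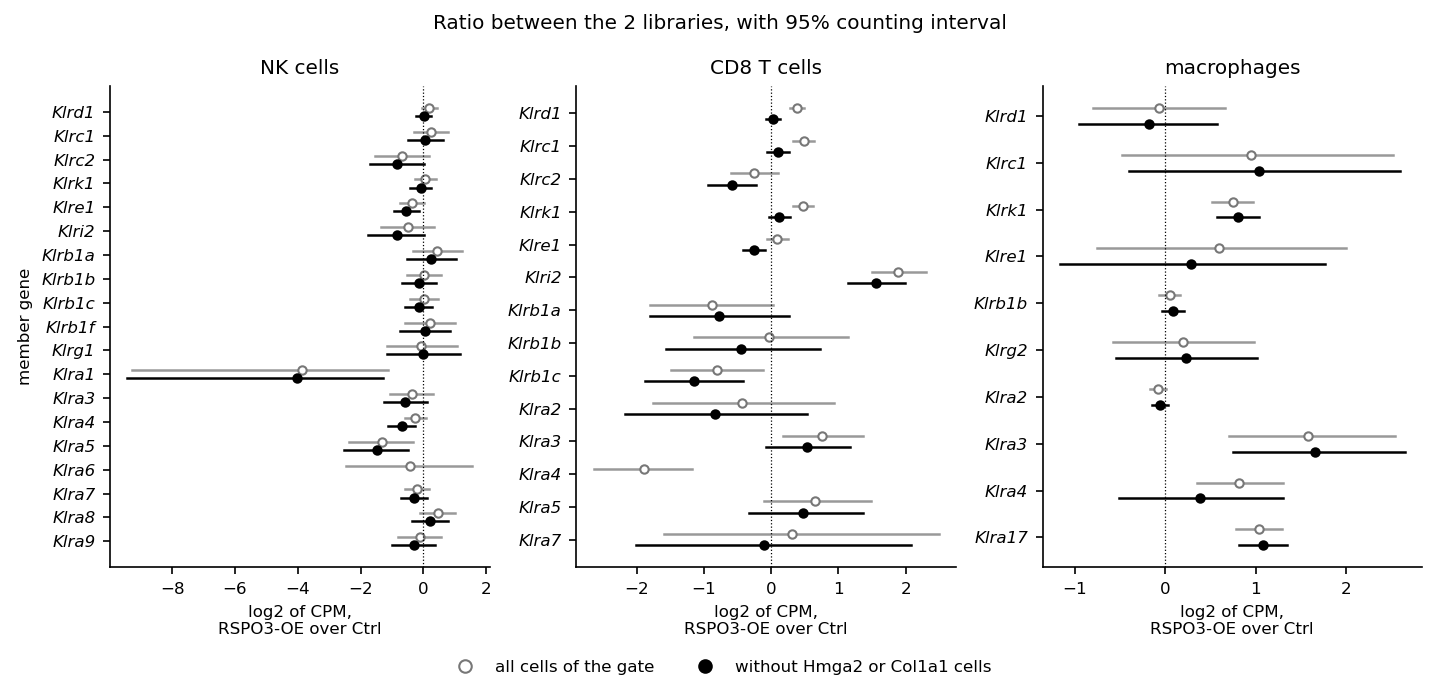
Log2 ratio of CPM, RSPO3-OE over Ctrl, for each member with at least 10 UMIs in NK cells, CD8 T cells and macrophages; open points are all cells of the gate, filled points the cells without Hmga2 and Col1a1 where 10 UMIs remained, and lines are 95% counting intervals. In CD8 T cells Klrd1, Klrc1 and Klrk1 move from above 0 to near 0 between open and filled points, while Klri2 stays at 1.55; in macrophages Klrk1, Klra17 and Klra3 lie above 0 in both.

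Macrophages expressed a small set of members. Klra2 (Ly49B), an inhibitory Ly49 known from myeloid cells, was in 848 of 1214 and 870 of 1176 macrophages at 129 and 136 CPM. Klrb1b (NKR-P1B) was in 492 and 448 of them at 76.8 and 74.2. Neither differed beyond counting error, with log2 ratios of -0.08 (-0.17 to 0.01) and 0.05 (-0.07 to 0.17). Klra2 was in 3.93% and 2.47% of the Ptprc-negative cells and Klrb1b in 0.405% and 0.308%, so both were far more frequent in macrophages. Monocytes (134 and 45 cells) had Klra2 at 165 and 218, and Klrb1b at 12.0 in RSPO3-OE and no UMI in Ctrl.

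Klrk1 and Klra17 were higher in the macrophages of RSPO3-OE. Klrk1 (NKG2D) was in 276 of 1214 and 191 of 1176 macrophages at 27.6 and 16.5 CPM, a log2 ratio of 0.75 (0.52 to 0.98). Klra17 (Ly49Q), an inhibitory receptor known from plasmacytoid and other myeloid cells, was in 228 and 130 at 25.1 and 12.3, a log2 ratio of 1.03 (0.78 to 1.29). Without the Hmga2 or Col1a1 cells the log2 ratios were 0.81 (0.57 to 1.04) and 1.08 (0.82 to 1.34). Klra3 was 2.99-fold higher in RSPO3-OE, from 43 and 15 UMIs in 39 and 14 cells, a log2 ratio of 1.58 (0.70 to 2.53). Of the 43 UMIs, 32 were in macrophages with at least 5 UMIs of the chemokine Ccl8 (413 and 98 cells), a subset chosen after seeing the data. Within that subset Klra3 stood at 5.79 (3.96 to 8.17) and 1.26 (0.153 to 4.56) CPM, the Ctrl value from 2 UMIs. In the other macrophages Klra3 stood at 1.12 (0.559 to 2.01) and 0.903 (0.481 to 1.54) CPM. Klrg2, a little studied member, had 32 and 29 UMIs.

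T cell transcripts in the macrophage gate give a scale for these values. Klrd1, Klrc1 and Klre1 stood in macrophages at 0.258%, 0.237% and 0.289% of their CD8 T cell level in RSPO3-OE, and at 0.353%, 0.171% and 0.205% in Ctrl. Cd3e, a T cell gene, stood at 0.305% and 0.194%. Klrk1 stood at 7.14% and 5.92%, far above the share of Cd3e. Klra4 had 105 and 62 UMIs in the macrophage gate, a log2 ratio of 0.82 (0.35 to 1.30), and 25 and 21 without the Hmga2 or Col1a1 cells, a log2 ratio of 0.39 (-0.51 to 1.30).

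Receptor levels also differed among macrophages, in subsets chosen after seeing the data. Those with at least 20 UMIs of H2-Ab1, an MHC class II gene, had Klrb1b at 98.9 and 116 CPM, against 42.0 and 45.2 in the others. Klrk1 was at 37.0 and 25.3 in them, against 12.9 and 10.4. Klra2 was less uneven, at 145 and 162 against 103 and 118. Klra17 was at 27.8 and 21.2 against 20.8 and 6.13, with the wider gap in Ctrl. All 4 macrophage receptors thus had higher levels in the MHC class II-high cells of both libraries. Macrophages of this kind were 720 of 1214 in RSPO3-OE and 485 of 1176 in Ctrl, and the share moves with the library.

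Klrk1 was higher in macrophages with Ly6c2, a gene of recently arrived monocytes, and Klra17 was lower in them in RSPO3-OE. Macrophages with Ly6c2 had Klrk1 at 49.6 and 43.0 CPM, against 23.1 and 14.9 without it. For Klra17 the values were 6.43 and 11.6 with Ly6c2 against 29.0 and 12.3 without it, and the Ctrl value with Ly6c2 rests on 10 UMIs (interval 5.57 to 21.4). Monocytes, by gate, had Klrk1 at 63.5 and 30.7. Klra17 was highest in RSPO3-OE in macrophages with at least 5 UMIs of the chemokine Cxcl9 (35.3, and 17.6 in Ctrl) and of the chemokine Ccl8 (35.1 and 15.1). Dendritic cells (31 and 7) had Klrk1 at 163 and 110.2 and Klrb1b at 103 and 88.3, with few cells behind the Ctrl values.

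**Figure D4:**
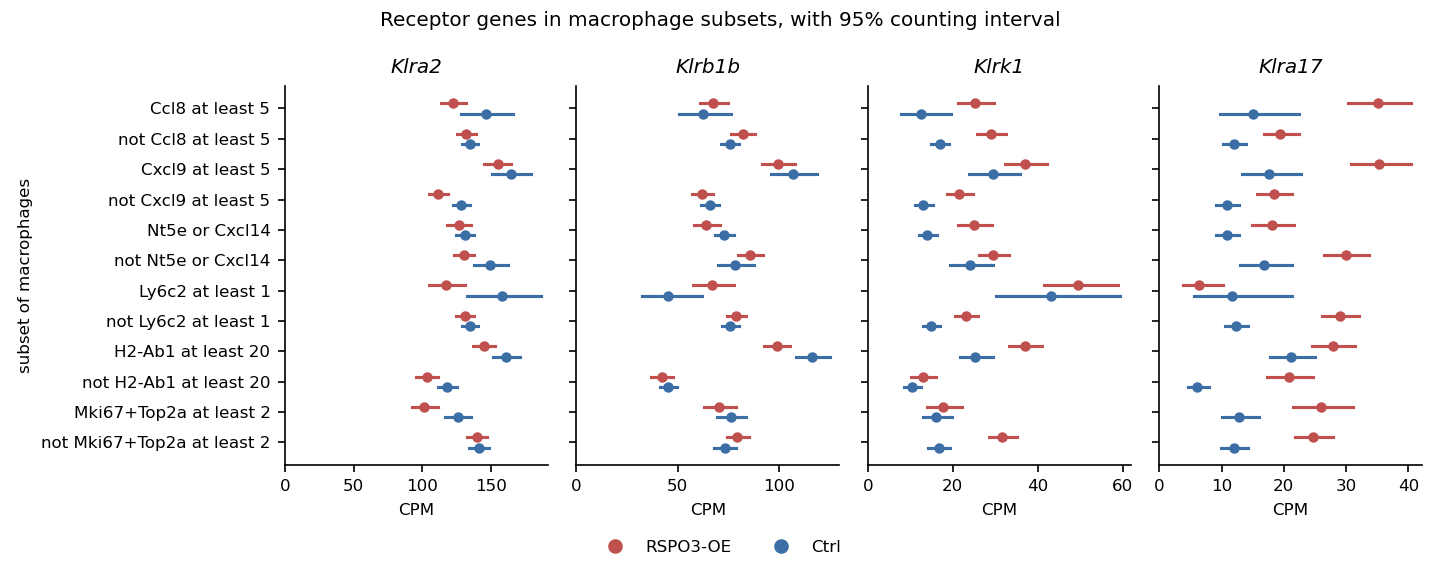
Level of Klra2, Klrb1b, Klrk1 and Klra17 (CPM of the subset, with 95% counting interval) in subsets of macrophages of RSPO3-OE (red) and Ctrl (blue), each subset beside its complement. Klrb1b and Klrk1 are higher in the H2-Ab1 subset of both libraries (Klrb1b 98.9 and 116), and the RSPO3-OE point of Klra17 lies right of the Ctrl point in all subsets except Ly6c2 (6.43 and 11.6).

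In macrophages 10 members had at least 10 UMIs. Klra17 and Klra3, 2 of the 10, were at least 2-fold higher in RSPO3-OE, beside 6.14% of 12845 genes, and 0 were at least 2-fold lower, beside 3.22%. With doublets kept 8 members were at least 2-fold higher, beside 6.86% of 13318 genes, and 0 lower, beside 3.29%. The number of members with at least 10 UMIs under that setting is not given, so the 8 cannot be read as a share. Doublets can carry lymphocyte transcripts into the gate. Over all alternatives, the lymphocyte genes Klrd1, Klre1 and Klrc1 reached log2 ratios of 1.07, 1.16 and 1.42 in macrophages. Without the Hmga2 or Col1a1 cells 3 were higher, beside 4.69% of 12432 genes, and 0 lower, beside 3.69%, the addition being Klrc1 from 13 and 7 UMIs. The median log2 ratio was 0.67 over the 10 members and 0.05 over all genes, and 0.34 over 10 members and 0.02 over all genes without those cells. The sum stood at 275 and 249 CPM, a log2 ratio of 0.14, and 0.16 (0.10 to 0.23) without those cells. Klra2 and Klrb1b, the highest of the 10 members, had log2 ratios of -0.08 and 0.05 over the gate. The median of 0.67 rests in part on Klre1 (0.59), Klrc1 (0.95) and Klra4 (0.82). These stood at only 0.847, 0.847 and 6.84 CPM in the macrophages of RSPO3-OE.

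Klra4 had most of its UMIs outside the immune classes. In Ptprc-negative Y-negative cells it had 19614 and 13864 UMIs, in 3347 of 4687 (71.4%) and 3121 of 5190 (60.1%) cells. That was 94.5% and 94.1% of all Klra4 UMIs of the kept cells. Its level was 161 and 119 CPM, a log2 ratio of 0.43 (0.40 to 0.46). At least 10 Klra4 UMIs were in 609 and 337 single cells, and the highest cells had 47 and 46. In this class Ncr1, the defining NK marker, had 0 and 1 UMIs, and the summed level of the 9 NK markers was 5.91 and 6.50 CPM, beside 4036 and 3566 in the NK gate.

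Other Ly49 genes were nearly absent from these cells. Klra6, the nearest gene downstream of Klra4 with a gap of 16.8 kb, had 101 and 53 UMIs. Klra8, on the other side, had 0 and 1, and Klra5, Klra7, Klra9, Klra10 and Klra3 had between 0 and 5. Klra2 had 202 and 134 UMIs. Its CPM was 1.29% and 0.848% of that in macrophages, beside 0.203% and 0.186% for Klrb1b. Thus 1 gene out of a cluster of 11 was found at a level like that of Klra2 in macrophages. Klra6 was in 2.78% and 1.38% of the cells with Klra4 and in 0.373% and 0.435% of those without, though the first were deeper (27734 and 25353 UMIs at the median against 16176 and 12575). In the 3′ end of Klra4, 95.3% of the 50-base words are unique to it.

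Within the class, Klra4 was higher in dividing cells, at 196 and 141 CPM against 91.5 and 72.5 in the others. Cells with Lum or Pdgfra, fibroblast genes, had 105 and 93.5, against 190 and 139 without them. Cells with at least 5 UMIs of Mgp had 82.8 and 41.6, against 184 and 124. Cells with Hmga2 had 169 and 127 against 54.7 and 54.1. The level was therefore lower in cells with these fibroblast genes or with Mgp, in cells without Hmga2 and in cells that were not dividing. In RSPO3-OE, cells with a Rspo3 UMI had Klra4 at 186 and cells without one at 153, both above the 119 of Ctrl. RSPO3-OE was higher in each of these subsets except the cells without Hmga2, where the 2 intervals overlap.

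Over the whole gates of T cells and macrophages, Klra4 stood near Hmga2 when both were set against the Ptprc-negative cells. Of the level in Ptprc-negative cells, macrophages had 4.25% and 3.25% for Klra4, beside 4.79% and 2.89% for Hmga2. CD8-negative T cells had 79.3% and 80.1%, beside 75.7% and 81.5%. Of these 134 and 57 cells, 70 and 31 were also in the Ptprc-negative gate, so their close shares are partly set by that overlap. The 62 and 24 of them without Hmga2 and Col1a1 still had Klra4 at 50.8 and 30.9 CPM. Those values rest on 22 and 5 UMIs, from 6 and 1 cells. NK cells stood apart, with 134% and 216% for Klra4 beside 74.8% and 83.5% for Hmga2. So the NK gate held Klra4 well beyond the share of Hmga2, while the shares were close over the whole gates of these T cells and macrophages. Neutrophils had 27.4% and 106% for Klra4, from 9 and 7 UMIs, beside 37.5% and 37.4% for Hmga2. Monocytes had 2.04% and 2.57%, from 3 and 1 UMIs, beside 0.336% and 0%. Other genes gave other shares. In the CD8 gate of Ctrl, Col1a1 stood at 8.97%, Tpm1 at 53.9% and Krt8 at 148%, beside 24.7% for Klra4.

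**Figure D5:**
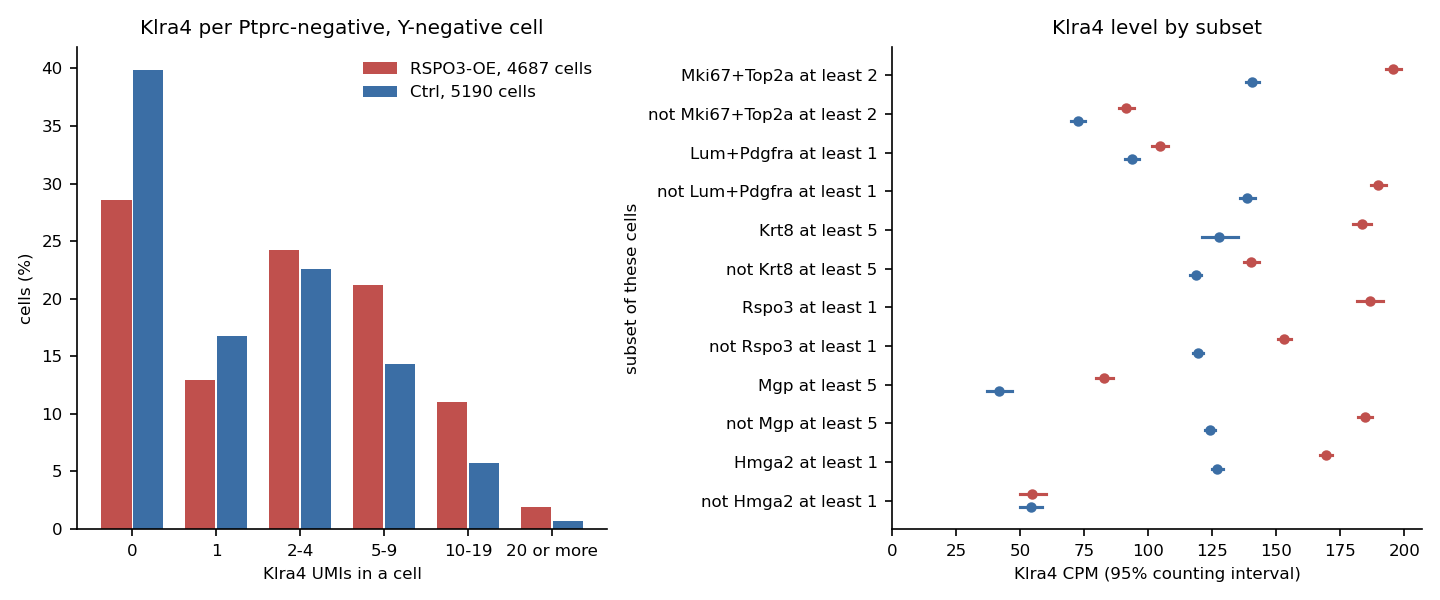
Left, share of Ptprc-negative Y-negative cells (%) by the number of Klra4 UMIs in the cell; right, Klra4 level (CPM, 95% counting interval) in subsets of these cells, for RSPO3-OE (red) and Ctrl (blue). Cells with no Klra4 UMI were 28.6% in RSPO3-OE and 39.9% in Ctrl, and dividing cells have the highest level (196 and 141); no Ctrl cell holds Rspo3, so that subset has 1 point.

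The adaptors and ligands of the receptors come from lists compiled with earlier results of these data known. Values in NK cells, CD8 T cells and macrophages are for cells without Hmga2 and Col1a1 unless stated. Values in Ptprc-negative cells are for the whole class. In NK cells 14 of 15 signalling genes had at least 10 UMIs. Of these, 0 were 2-fold different either way, beside 7.47% of all genes higher and 7.87% lower. Tyrobp (DAP12), which carries the signal of Klra4, Klra8 and Klrc2, stood at 2513 and 2272 CPM, and Hcst (DAP10), which carries that of Klrk1, at 358 and 307. In CD8 T cells 15 were measured, 0 higher and 2 lower, beside 5.25% and 4.26% of all genes. Those 2 were Tyrobp at 70.8 and 151 (log2 -1.09, -1.39 to -0.80) and Fcer1g at 397 and 799 (log2 -1.01, -1.13 to -0.88). Hcst stood at 513 and 516 there. Tyrobp and Fcer1g are also macrophage genes, and macrophage markers had the same order in these CD8 T cells. All 7 of 7 were detected in both libraries, summing to 548 CPM in RSPO3-OE and 1381 in Ctrl. Their part in the lower Tyrobp and Fcer1g was not tested. In macrophages 13 were measured and 2 were higher, both from few UMIs, beside 4.69% of all genes. Tyrobp stood there at 2130 and 2454 and Hcst at 49.1 and 40.3.

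Ligand genes were read mainly in the Ptprc-negative cells. The median log2 ratio over 15369 genes of this class was -0.09, and the share of its genes past 2-fold was not counted. All 5 MHC class I genes had higher levels there in RSPO3-OE, with none reaching 2-fold. Of these, H2-Q7 stood at only 1.72 and 0.886 CPM, beside 940 and 652 over all cells of the CD8 gate. H2-K1 and H2-D1, ligands of Ly49 receptors, stood at 2173 and 1643 (log2 0.40) and at 2413 and 2022 (log2 0.25). H2-T23, which encodes the Qa-1 ligand of CD94/NKG2, stood at 284 and 195, a log2 ratio of 0.54 (0.52 to 0.56). Clec2d, a ligand of NKR-P1B, stood at 61.0 and 45.1 (log2 0.44), the 1 measured of 6 Clr genes. Of the NKG2D ligands 5 of 8 are in the tables and 2 were measured: Ulbp1 at 6.53 and 5.51 (log2 0.25), and Raet1d at 0.665 and 0.0688 from 81 and 8 UMIs (log2 3.27, 2.23 to 4.53). In macrophages Raet1d had the opposite order, with 29 and 83 UMIs (log2 -1.38, -2.04 to -0.75). Cdh1, which encodes the E-cadherin ligand of KLRG1, stood in macrophages at 14.7 and 3.13 (log2 2.23, 1.76 to 2.73).

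Effector genes and regulators known to accompany the receptors were also counted in the NK cells, CD8 T cells and macrophages without Hmga2 and Col1a1. Over all genes measured in them, 7.47% were at least 2-fold higher and 7.87% at least 2-fold lower in NK cells, 5.25% and 4.26% in CD8 T cells, and 4.69% and 3.69% in macrophages. In NK cells 1 of 7 measured effectors was at least 2-fold higher, Ccl5 at 1330 and 498 CPM, and Gzma, Gzmb and Nkg7 stood at 2754 and 2746, 2643 and 2521, and 2002 and 1711. In CD8 T cells 0 of 8 were higher and 1 was lower, Xcl1 at 44.1 and 122.1. Among 9 measured regulators in NK cells 1 was at least 2-fold lower, Id2 at 622 and 1259, while Runx3, whose motif was searched above, stood at 348 and 345. In CD8 T cells 0 of 10 regulators differed 2-fold, with Runx3 at 375 and 327. NK receptors outside the family were measured for 8 of 11 genes in NK cells. Of these, 1 was at least 2-fold higher, Cd160 at 120.3 and 37.4, and Ncr1 stood at 321 and 361. In macrophages 2 of 5 measured effectors were higher (Ccl5 at 485 and 165), as were 3 of 5 other NK receptors (Slamf7 at 104 and 52.1) and 2 of 7 regulators (Nfil3 at 164 and 64.6). Of these, Itgae and Tox each rest on 8 and 4 UMIs, with intervals that include 0. Prf1, the other effector, had 23 and 6 UMIs at 1.72 and 0.409 CPM, beside 892 and 716 in CD8 T cells. Il2rb, counted among the receptors, had 43 and 23 UMIs at 3.22 and 1.57, beside 751 and 824. The part of T cell transcripts in these 2 genes was not tested. Another regulator was at least 2-fold lower in macrophages, Eomes from 2 and 14 UMIs, and so were 2 of 3 Clr genes.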

How the data were processed

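Single-cell 3′ libraries of 1 RSPO3-OE and 1 Ctrl tumour were analysed. The authors deposited whole-number UMI counts per gene and cell barcode, with no normalization. Per the submitters' processing notes they came from Cell Ranger 3.0.1 with build mm10; the matrices name software 3.1.0 per the file headers. The library kit is given as v2 per the labels' protocols.

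From these counts, cells with fewer than 200 genes or over 20% mitochondrial UMIs (150 in RSPO3-OE and 311 in Ctrl) and doublets called by Scrublet in scanpy 1.11.5 (171 and 95, or 2.39% and 1.36%) were left out. Totals were 155615189 and 143881763 UMIs over all barcodes. Cells were gated on marker UMIs, and levels in CPM were taken from the summed raw counts of each class. Ratios carry exact conditional binomial 95% intervals, shares exact Clopper-Pearson intervals and levels exact Poisson intervals (scipy 1.17.1), which cover counting error only. The ratio step was tested on simulated data. Groups of 1 library allow no test. A count of 0 was taken to allow 3 counts. Cells were thinned to 2000 UMIs where shares are compared; 3 CD8 T cells of RSPO3-OE without Hmga2 and Col1a1 were too shallow for it.

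Every member with at least 10 UMIs over both libraries in NK cells, CD8 T cells or macrophages is named, and of each companion list up to 4 genes with the most UMIs or those past 2-fold, the latter named after their values were seen. Members and lists were chosen with earlier results of these data known. Alternatives included doublets kept, stricter filters and gates, thinning, the mean of the cells' own values, median-of-ratios scaling and other UMI minimums. Promoters are from RefSeq, compared by global pairwise alignment in biopython 1.88. Uniqueness is the share of 50-base words in the last 500 bases of a gene's GENCODE transcripts found in no other gene.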

Additional observations from a re-analysis of the deposited data

Results flagged for a closer look

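Klra4 differed in order between classes under the same comparison. Its log2 ratio of RSPO3-OE over Ctrl was 0.82 in macrophages and 0.43 in Ptprc-negative Y-negative cells, both higher in RSPO3-OE, and -1.89 in CD8 T cells, lower in RSPO3-OE. With 1 library per group this difference was not tested. Once cells with Hmga2 or Col1a1 were left out, 5 and 3 Klra4 UMIs remained in CD8 T cells, and the macrophage value was 0.39 with an interval that includes 0.

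Klra4, Klra6 and Klrg2 had most of their UMIs in Ptprc-negative Y-negative cells, outside the NK, CD8 T cell and macrophage classes. Klra1 had 92.9% of 14 and 56.7% of 30 UMIs outside these 3 classes, and Klri1 71.4% of 7 and 66.7% of 3. For Klrg1 it was 53.3% of 60 in RSPO3-OE and 28.6% of 21 in Ctrl. The Ptprc-negative Y-negative class was itself 67.0% and 75.3% of the kept cells. The Ptprc-negative Y-negative cells held 94.5% of the Klra4 UMIs of RSPO3-OE and 94.1% of those of Ctrl. For Klra6 the shares were 88.6% and 79.1%, of 114 UMIs in RSPO3-OE, at a level of only 0.83 and 0.456 CPM in that class. For Klrg2 they were 54.5% and 65.3%, of 77 and 101 UMIs, which is below the share of kept cells in that class.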

How the results depend on the processing

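No paired analysis was possible because each group has 1 library. Of 102 class-level values under alternatives, 80 moved by less than their counting interval or, for counts of members, by less than 1.5 times, as did 427 of 473 values of single genes and receptor families. The summed log2 ratio in CD8 T cells was 0.30 with doublets kept, 0.20 thinned to 2000 UMIs, 0.21 as the mean of the cells' own values and 0.038 without Hmga2 or Col1a1 cells, which were a larger share of the Ctrl gate. In NK cells it was 0.23 under a stricter gate, -0.25 without those cells and -0.24 with both changes. In macrophages it was 0.060 when thinned. Klra4 in Ptprc-negative Y-negative cells was at 0.53 thinned, 0.52 as the mean of cells' own values and 0.52 under median-of-ratios scaling. NK members 2-fold higher in RSPO3-OE numbered 1 under the stricter gate, 2 when thinned and 3 with no UMI minimum, and those 2-fold lower numbered 1 under the stricter gate, when thinned and with at least 30 UMIs. CD8 members 2-fold lower numbered 3 as the mean of cells' own values and 2 with no UMI minimum. Macrophage members 2-fold higher numbered 8 with doublets kept and 1 under median-of-ratios scaling, and 1 was 2-fold lower with no UMI minimum. Klra5 in NK cells turned to 0.42 (-0.89 to 1.77) under the stricter gate. Causes of the other moves were not tested. Klri2 in CD8 T cells stayed between 1.17 and 1.95, Klra17 in macrophages between 0.98 and 1.40 and Klrk1 there between 0.58 and 0.81. The NK values rest on 48 and 30 cells of the gate, and Klra1, Klra5 and Klra6 there on 1 to 4 cells per library.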
